A study of Mus musculus with 2 samples.

Results

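Short alternative exons of 21 to 51 bases were examined in full-length transcript reads of mouse gastrocnemius, the large calf muscle. An exon was counted as alternative when it was an internal exon of a GENCODE transcript and lay wholly inside an intron of another GENCODE transcript of the same gene. Of 2773 such exons in the annotation, 1168 exons in 922 genes had at least 10 spanning reads over both libraries, and these are the exons described. They were selected on that measured total of spanning reads, which are reads whose chain of introns runs past the exon on both sides and either keeps it or splices over it. The same rule with no length limit gave 12655 alternative internal exons, of which 11272 were 52 bases or longer. Most genes contributed a single short exon (739 of 922), 183 genes contributed at least 2, and the most in a gene was 6.

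The series held 1 group of 2 libraries, and no treatment, genotype or age was compared. Both came from male B6CASTF1/J mice, first-generation hybrids of the C57BL/6J and CAST/EiJ strains, aged 18 to 20 months, and each started from 2 µg of total RNA with synthetic spike-in RNAs added. The labels call them biological replicates 1 and 2; they give both the same donor entry, and whether each library was made from 1 mouse or from pooled mice is not given in the sources used here. Totals were 1509380 reads in replicate 1 and 1173233 in replicate 2. Summed over the short exons, with a read counted once for each exon it spans, there were 348493 spanning reads in replicate 1 and 305444 in replicate 2.

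Cassette exons are kept or skipped as whole units when the spliceosome pairs their splice sites with those of their neighbours, and very short exons depend heavily on flanking enhancer sequences and on RNA-binding proteins of the MBNL, RBFOX, CELF and PTBP families. Striated muscle is known, with brain, for a large programme of such exons, many of which keep the reading frame and add or remove a few residues in proteins of contraction, calcium handling, membrane traffic and transcription. In the sequences printed here, read from GENCODE M21 transcripts (C57BL/6J reference, mm10) 5′ to 3′ on the mRNA strand, capitals mark the short exon and lower-case letters the 12 bases joined to it on either side. The allele of origin was not assigned.

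The first set shows the exons that differed between the libraries and the alternative pairs that were exchanged for each other within reads. In order they are Tnnt3 on the plus strand (chr7:142513665-142513705 and chr7:142514326-142514366), Myl1 on the minus strand (chr1:66934518-66934542 and chr1:66934246-66934273), Dctn1 on the plus strand (chr6:83187764-83187784) and Kif1b on the minus strand (chr4:149261160-149261201).
Tnnt3, 5′ exon: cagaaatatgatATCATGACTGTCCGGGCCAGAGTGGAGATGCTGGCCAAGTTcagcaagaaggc
Tnnt3, 3′ exon: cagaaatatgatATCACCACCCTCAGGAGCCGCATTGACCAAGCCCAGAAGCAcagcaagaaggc
Myl1, 25-base exon: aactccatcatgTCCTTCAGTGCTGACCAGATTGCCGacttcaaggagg
Myl1, 28-base exon: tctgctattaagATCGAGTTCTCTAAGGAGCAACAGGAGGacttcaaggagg
Dctn1: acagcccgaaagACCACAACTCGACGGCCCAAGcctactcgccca
Kif1b: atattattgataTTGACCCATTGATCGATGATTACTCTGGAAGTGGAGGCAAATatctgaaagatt

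The second set shows short exons of alike sequence in pairs or families, printed so that sequence and inclusion can be compared, with the shorter Mef2d exon beside those of its relatives. Both Phka1 exons are on the minus strand (chrX:102532077-102532115, kept in nearly all reads, and chrX:102531922-102531960, kept in none). The others are Mef2a (chr7:67244521-67244544, minus strand), Mef2c (chr13:83654598-83654621, plus strand), Mef2d (chr3:88161781-88161801, plus strand), Camk2d (chr3:126802937-126802969, plus strand), Camk2g (chr14:20747819-20747851, minus strand), Mbnl1 (chr3:60621423-60621458, plus strand), Mbnl2 (chr14:120403336-120403371, plus strand), Homer1 (chr13:93386345-93386380, plus strand), Nrf1 (chr6:30090269-30090304, plus strand) and Fam168b (chr1:34824020-34824055, minus strand).
Phka1, 5′ exon: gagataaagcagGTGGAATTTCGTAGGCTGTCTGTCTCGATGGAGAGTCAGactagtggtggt
Phka1, 3′ exon: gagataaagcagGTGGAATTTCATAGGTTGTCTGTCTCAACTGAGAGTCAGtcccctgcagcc
Mef2a: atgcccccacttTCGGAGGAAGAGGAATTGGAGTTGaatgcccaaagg
Mef2c: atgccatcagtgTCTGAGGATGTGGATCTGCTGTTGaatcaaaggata
Mef2d: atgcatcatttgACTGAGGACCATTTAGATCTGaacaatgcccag
Camk2d: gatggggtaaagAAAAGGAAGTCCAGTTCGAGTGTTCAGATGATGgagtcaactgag
Camk2g: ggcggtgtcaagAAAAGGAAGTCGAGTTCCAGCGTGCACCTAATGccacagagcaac
Mbnl1: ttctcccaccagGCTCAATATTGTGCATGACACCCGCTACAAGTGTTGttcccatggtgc
Mbnl2: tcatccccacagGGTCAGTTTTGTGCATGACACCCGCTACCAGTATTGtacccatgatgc
Homer1: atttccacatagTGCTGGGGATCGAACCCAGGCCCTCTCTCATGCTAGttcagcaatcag
Nrf1: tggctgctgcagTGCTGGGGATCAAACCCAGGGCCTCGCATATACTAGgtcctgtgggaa
Fam168b: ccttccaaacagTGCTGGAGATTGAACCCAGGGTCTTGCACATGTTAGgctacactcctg

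Inclusion, the percentage of spanning reads that keep the exon, lay mostly at the extremes. With the reads of both libraries together, 397 short exons (34.0%) were kept in under 10% of spanning reads, 461 (39.5%) in over 90%, and 310 (26.5%) fell between. The median was 68.1%, with 265 exons kept in no read and 260 skipped in no read. When a skip was counted only for introns with the donor and acceptor of exon-keeping models, fewer exons reached the read minimum. Of these, 114 lay below 10%, and the median was 95.2%. An exon kept in no read has no such donor or acceptor, so this setting drops all 265 of them by rule. The smaller lowest class and the higher median are therefore partly set in advance. With annotated transcripts alone, fewer exons also remained in the count, and 120 lay between 10% and 90%. Among the alternative exons of 52 bases or more, the median was 98.6%, 24.2% were kept in under 10% of reads, 14.9% fell between and 60.9% were kept in over 90%. These shares describe exons, which are not replicates, and no test was run on them; the longer exons were not recounted under those stricter settings. The median of single libraries was 66.7% in replicate 1 and 65.7% in replicate 2 for the short exons.

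Depth was uneven. The median short exon had 27 spanning reads in replicate 1 and 28.5 in replicate 2, 391 exons had at least 100 over both libraries and 33 had at least 1000. At the selection limit, the 32 exons with exactly 10 reads had a median inclusion of 45.0%, and the 33 annotated short exons just outside it, with 9 reads, had a median of 22.2%. Among the 391 well-read exons the shares were 34.0% below 10%, 22.5% between and 43.5% above 90%. A single Atp2a1 exon supplied 227190 spanning reads in replicate 1 and 204025 in replicate 2. Without Atp2a1, 63.1% of spanning reads belonged to annotated transcripts, 19.8% to new combinations of annotated splice sites, 9.36% to models with an unannotated splice site and 7.78% to incomplete transcripts.

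Where an exon sits in its transcript went with how often it was kept. The 818 exons that are coding in at least 1 protein-coding transcript had a median inclusion of 92.7%, with 163 below 10%, 223 between and 432 above 90%. By contrast, the 116 exons in 5′ untranslated regions had a median of 1.52%. A median of 0% was found for 72 exons held by at least 1 transcript marked for nonsense-mediated decay and by no protein-coding one. The 98 exons of other non-coding transcripts also had a median of 0%. Another 60 exons hold an end of the coding sequence (median 17.4%), and 4 lie in 3′ untranslated regions (median 44.3%). Longer exons had medians of 100% for 7965 coding exons and 87.0% for 594 exons at an end of the coding sequence. Their medians were 3.10% for 951 exons of 5′ untranslated regions and 0% for 965 exons of the same decay-marked class.

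Length and reading frame separated the coding exons further. Of all 1168 short exons, 657 (56.2%) were multiples of 3 bases long, compared with 41.7% of longer exons. Among coding exons, where keeping or skipping such a length leaves the frame intact, the shares were 65.6% and 45.5%. The 537 coding exons of frame-keeping length had a median inclusion of 76.9%, and 180 of them (33.5%) lay between 10% and 90%. The 281 coding exons of frame-shifting length had a median of 99.8%, and 43 of them (15.3%) lay between. Longer coding exons differed in the same direction, with 20.5% of 3623 frame-keeping and 8.45% of 4342 frame-shifting exons between. The share of frame-keeping lengths was 74.1% among exons of 21 to 27 bases and 41.3% among those of 46 to 51 bases. The shorter bin begins and ends on a multiple of 3, so part of this contrast is set by the bin edges.

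Inclusion of coding exons was lowest at the shortest lengths. Frame-keeping coding exons of 21 to 27 bases had a median of 30.2% (n = 120), those of 28 to 33 bases 72.6% (n = 96), of 34 to 39 bases 66.7% (n = 111), of 40 to 45 bases 94.2% (n = 102) and of 46 to 51 bases 89.8% (n = 108). Frame-shifting coding exons had medians between 92.3% and 100% in these bins. The 184 coding exons shorter than 21 bases, outside the range studied, had a median of 0%, and 163 of them were kept in no read. How far the alignment of so few bases within a long read sets these values was not tested.

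**Figure D1:**
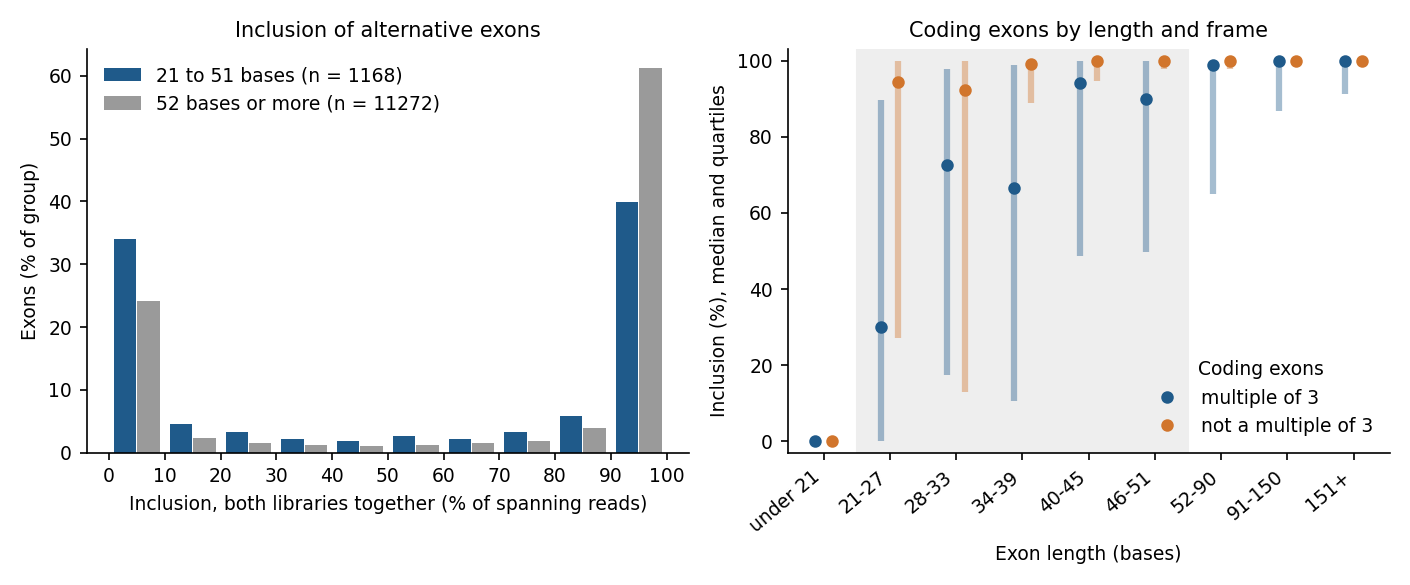
Left, the share of alternative exons (vertical axis, % of group) in each 10-point bin of inclusion (horizontal axis, % of spanning reads, both libraries together) for 1168 short exons and 11272 exons of 52 bases or more; short exons have 34.0% in the lowest bin and longer exons 24.2%. Right, median inclusion (points) and quartiles (bars) of coding exons by length, for lengths that are and are not multiples of 3; the grey band marks 21 to 51 bases, where the frame-keeping median is 30.2% at 21 to 27 bases and 89.8% at 46 to 51 bases.

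The libraries gave nearly the same inclusion for most short exons, many of which lie at an extreme of inclusion. Over the 848 exons with at least 10 spanning reads in each library, the median absolute difference was 0.628 points, and Pearson's r between replicate 1 and replicate 2 was 0.989 (Spearman's rho 0.958), a description across exons that share libraries. Of these 848 exons, 84 differed by 10 points or more, and of the 153 with at least 100 reads in each library, 8 did. At the extremes the libraries can hardly differ, so the median difference and r say little about intermediate exons. For exons between 20% and 80% with at least 100 reads over both libraries, absolute differences ran from 0.228 points (Dnm2) to 21.2 points (Mast2). By Fisher's exact test on kept and skipped reads, with Benjamini-Hochberg adjustment over 12639 alternative exons of all lengths, 4 of 1168 short exons passed an adjusted p below 0.05 with a difference of at least 10 points, in the genes Tnnt3 (both exons), Dctn1 and Kif1b. Nearly all Tnnt3 reads hold exactly 1 of its 2 exons, so its 2 calls mirror each other and are not separate results. Over all lengths 20 exons, 0.158%, were called. With no minimum size, 7 of the 1168 short exons passed, beside 25 of the 12639 exons of all lengths. An unadjusted p below 0.05 was found for 36 short exons, beside 204 exons of all lengths. Such a test compares the reads of these libraries and not conditions, since each library is 1 sample and reads carry no molecular identifiers; intervals below are exact 95% Clopper-Pearson intervals and cover counting error only. For an exon kept in no read, the largest share allowed is given as 3 reads over the spanning reads of both libraries together, unless an interval of each library is named.

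**Figure D2:**
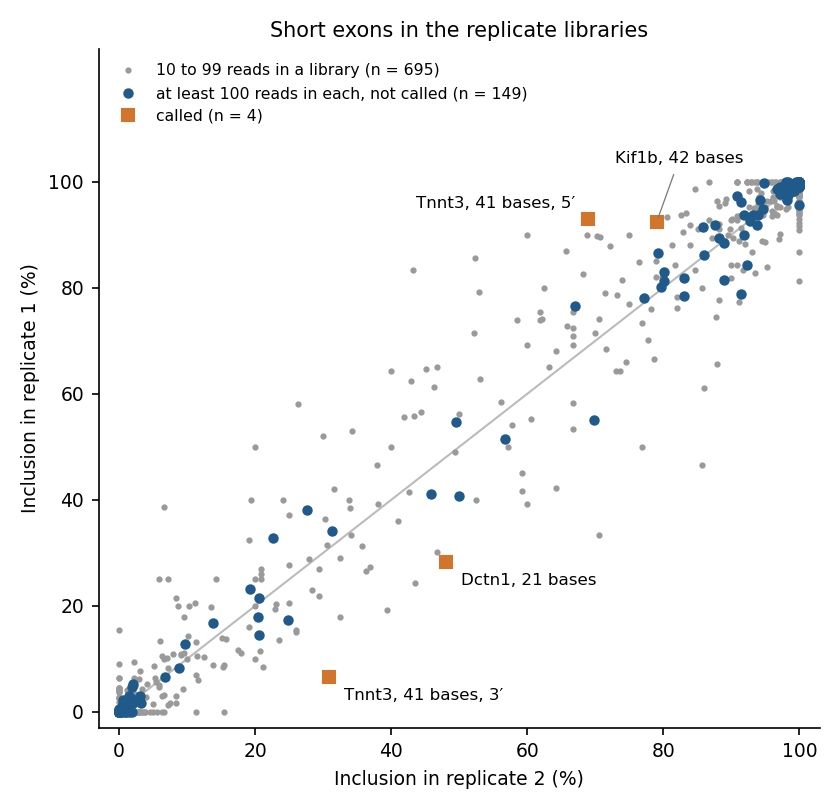
Inclusion in replicate 1 (vertical axis, %) against replicate 2 (horizontal axis, %) for the 848 short exons with at least 10 spanning reads in each library; the grey line marks equal values. The 4 exons called different, both Tnnt3 exons, Dctn1 and Kif1b, are marked by squares, with the Tnnt3 5′ exon at 93.0% in replicate 1 and 68.9% in replicate 2.

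Tnnt3, which encodes fast skeletal troponin T, the tropomyosin-binding subunit of the thin-filament calcium switch, carried the largest called differences among the short exons. Its 5′ exon of the alternative pair was kept in 2762 of 2970 reads in replicate 1 (93.0%, 92.0 to 93.9%) and in 1024 of 1487 reads in replicate 2 (68.9%, 66.4 to 71.2%). Its 3′ exon was kept in 204 of 3093 reads in replicate 1 (6.60%, 5.75 to 7.53%) and in 464 of 1503 reads in replicate 2 (30.9%, 28.5 to 33.3%). The intervals of the libraries did not overlap for either exon, but they rest on the same counts as the call and add no support to it. The mean inclusion was 80.9% ± 17.1 for the 5′ exon and 18.7% ± 17.2 for the 3′ exon (SD, n = 2). Adjusted p from Fisher's exact test was 2.01e-90 for the 5′ exon and 2.13e-95 for the 3′ exon. These 2 tests rest largely on the same reads. The exons are both 41 bases long, lie 620 bases apart and have 18 identical bases, 43.9%. No read that kept either Tnnt3 exon was assigned to an annotated transcript as a whole. Of the reads keeping the 5′ exon, 45.8% belonged to models with an unannotated splice site, 27.2% to new combinations of annotated sites and 27.0% to incomplete transcripts.

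Fibre-type genes differed between the libraries in parallel with Tnnt3. Of the reads of adult myosin heavy chain genes, 94.5% in replicate 1 and 74.0% in replicate 2 were from Myh4, the gene of the fastest fibres, whereas Myh7 of slow fibres supplied 0.324% in replicate 1 and 5.86% in replicate 2. Myh1 supplied 4.57% in replicate 1 and 14.3% in replicate 2, and Myh2 0.611% and 5.79% in the same order of libraries. The part of fibre composition in any exon difference was not tested, and in whole muscle fewer fibres of a type and less RNA per fibre cannot be told apart. Summed marker levels, in CPM (counts scaled to the library total) for replicate 1 and then replicate 2, were 142708 and 131843 for muscle fibres. For fibroblasts the sums were 618 and 655 CPM, for smooth muscle and pericytes 191 and 369 CPM, and for blood 170 and 98.9 CPM. For endothelium they were 33.1 and 86.1 CPM and for immune cells 34.5 and 14.5 CPM, while the Schwann cell markers had 37 reads in replicate 1 and 61 reads in replicate 2. The 4 neuronal markers had 1 read in replicate 1 and 2 reads in replicate 2, with Snap25 and Tubb3 at 0 in both. The part of these other cell types in the exon differences was not tested.

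The other called exons lie in motor-transport genes. Dctn1 encodes the largest dynactin subunit, which links dynein to cargo and to microtubules, and its 21-base exon was kept in 114 of 402 reads in replicate 1 (28.4%, 24.0 to 33.0%) and in 252 of 524 reads in replicate 2 (48.1%, 43.7 to 52.5%). Kif1b encodes a kinesin motor, and its 42-base exon was kept in 221 of 239 reads in replicate 1 (92.5%, 88.4 to 95.5%) and in 460 of 582 reads in replicate 2 (79.0%, 75.5 to 82.3%). Neither exon's intervals overlapped, again on the same counts as the call. The means were 38.2% ± 14.0 for Dctn1 and 85.8% ± 9.50 for Kif1b (SD, n = 2). Adjusted p from Fisher's exact test was 8.61e-07 for Dctn1 and 0.000687 for Kif1b. Of the reads keeping the exon, 91.5% in Dctn1 and 90.9% in Kif1b belonged to new combinations of annotated splice sites. With annotated transcripts alone counted, the Dctn1 exon was kept in no read of either library, and the Kif1b and Tnnt3 exons had fewer than 10 spanning reads.

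Another 3 short exons passed the adjusted threshold with smaller differences. The 42-base exon of Atp2a1 was kept in 227039 of 227190 reads in replicate 1 and in 203543 of 204025 in replicate 2, a difference of 0.170 points (Fisher's exact test, adjusted p = 8.24e-46). Atp2a1 encodes the fast-muscle calcium pump of the sarcoplasmic reticulum, and skipping of this exon is known from newborn muscle, where it gives the protein a longer tail. GENCODE places the stop codon of transcript Atp2a1-201 in the first bases of the exon, printed here with the end of the upstream exon (chr7:126446545-126446586, minus strand, exon bases in capitals up to the end of the stop codon).
Atp2a1, start of the exon: actatctggaggGATAA
The stop codon TAA is at bases 3 to 5 of the exon, so the remaining 37 bases are untranslated in that transcript. Nearly all of the reads keeping the Atp2a1 exon, 97.2%, were assigned to models with at least 1 unannotated splice site. The 43-base exon of Mybpc1, the slow-type myosin-binding protein C gene, was kept in 371 of 372 reads in replicate 1 and 2039 of 2151 in replicate 2 (Fisher's exact test, adjusted p = 0.000254). The 42-base exon of Ndrg2 was kept in 2996 of 3011 reads in replicate 1 and 2748 of 2797 in replicate 2 (Fisher's exact test, adjusted p = 0.00206).

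Sarcomere and Z-disc genes had 16 of the short exons, in 10 of the 28 listed genes, with a median inclusion of 39.3%. All 7 lists, chosen with earlier results of these data known, had medians below the 68.1% of all short exons. The lower median is therefore not particular to sarcomere genes and may come from the choice of genes. In Myom1, an M-band protein that ties thick filaments together, a pair of 23-base exons was used with opposite outcomes. The 5′ one was kept in 0 of 804 reads in replicate 1 and 0 of 960 in replicate 2, which allows a share of up to 0.170%, and the 3′ one in 794 of 804 reads and 943 of 959 reads in the same order. Tnnt1, slow troponin T, had a 22-base exon kept in 5 of 12 reads in replicate 1 and 32 of 54 in replicate 2, with intervals of 15.2 to 72.3% and 45.0 to 72.4% that overlapped. An upstream 38-base and a 39-base exon of Tnnt3, which overlap each other, were skipped in 2175 reads of replicate 1 and 1114 of replicate 2 with none keeping either. Mybpc1 had a second, 42-base exon kept in 280 of 344 reads in replicate 1 and 1812 of 2039 in replicate 2, a difference that did not pass the test (Fisher's exact test, adjusted p = 0.0968).

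Calcium-handling genes had 16 short exons in 11 of 19 listed genes, 15 of them of frame-keeping length, with a median inclusion of 43.6%. The calcineurin catalytic subunits, phosphatases that signal calcium to the nucleus, kept their short exons in most reads. The 30-base exon of Ppp3ca was kept in 417 of 464 reads in replicate 1 (89.9%) and 385 of 419 in replicate 2 (91.9%), that of Ppp3cb in 135 of 136 and 107 of 107, and the 27-base exon of Ppp3cc in 27 of 39 and 12 of 20. The Ppp3ca and Ppp3cb exons share 86.7% of their bases. Among the calcium/calmodulin-dependent kinase II genes, the 33-base exon printed above was kept in 0 of 111 reads in replicate 1 and 0 of 86 in replicate 2 for Camk2d, and in 29 of 162 and 38 of 186 for Camk2g. In Camk2d this exon is known to carry a nuclear localization signal. The 2 exons share 78.8% of their bases, yet their intervals, up to 3.27% and 4.20% for Camk2d and from 12.3% and 14.9% for Camk2g, did not overlap in either library.

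Camk2d also had a 42-base exon, kept in 32 of 111 reads in replicate 1 and 24 of 86 in replicate 2, 28.4% of both together. Camk2b kept a 45-base exon in 102 of 103 and 150 of 153 reads. A 33-base exon of Camk2b, of different sequence from the Camk2d and Camk2g exons printed above, was kept in 0 of 84 and 0 of 142 reads. Asph, whose products include junctin and junctate of the sarcoplasmic reticulum, kept a 42-base exon in 276 of 280 and 156 of 159 reads and a 45-base exon in 7 of 292 and 3 of 163 reads. Short exons of 27 and 30 bases in Ryr1, the calcium release channel, were both skipped in 152 reads of replicate 1 and 414 of replicate 2, which allows a share of up to 0.530% for each. A 37-base exon of Stim1, the store calcium sensor, was kept in 0 of 97 and 0 of 175 reads.

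Transcription and splicing regulators gave clear contrasts between related genes. The MEF2 factors activate muscle genes, and a short acidic segment in their activation domain comes from a cassette exon. It was kept in 153 of 159 reads in replicate 1 (96.2%) and 214 of 234 in replicate 2 (91.5%) for Mef2a, and in 125 of 136 (91.9%) and 206 of 235 (87.7%) for Mef2d. In Mef2c it was kept in 1 of 255 reads in replicate 1 (0.392%) and 0 of 444 in replicate 2. The 24-base exons of Mef2a and Mef2c are identical at 70.8% of bases, and their intervals did not overlap in either library. MBNL proteins are themselves splicing regulators of muscle, and their 36-base exons, 86.1% identical, were kept in 24 of 186 reads in replicate 1 (12.9%) and 22 of 228 in replicate 2 (9.65%) for Mbnl1 and in 3 of 314 (0.955%) and 2 of 485 (0.412%) for Mbnl2.

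Rbfox1, another such regulator, kept a 40-base exon in 1 of 82 reads in replicate 1 and 2 of 28 in replicate 2 and a 43-base exon in 77 of 82 and 27 of 28. The 43-base exon is known as the muscle-type alternative to the 40-base one, which is used in brain. Ptbp2, the neural homologue of Ptbp1, kept a 34-base exon in 22 of 22 and 13 of 13 reads; skipping of this exon shifts the frame. The splicing list had 14 short exons in 11 of 22 genes, with a median of 64.6%, and the transcription list 6 exons in 5 of 18 genes, with a median of 20.4%.

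Membrane and transport genes included both fixed and evenly split exons. The membrane and T-tubule list had 29 short exons in 15 of 24 genes (median 41.4%), and the cytoskeleton, adhesion and trafficking list 30 in 17 of 30 genes (median 35.1%). Dnm2, the dynamin that cuts membrane necks, kept a 30-base exon in 28 of 57 reads in replicate 1 and 38 of 77 in replicate 2, 49.1% and 49.4%. Bin1, which shapes T-tubules, skipped a 24-base exon in 1255 reads of replicate 1 and 770 of replicate 2 and kept it in none, a share of at most 0.148%. Mtmr1, a lipid phosphatase, kept its 24-base exon in 67 of 72 and 81 of 81 reads and its 27-base exon in 66 of 71 and 73 of 81. Clip1, a microtubule plus-end protein, kept a 33-base exon in 186 of 201 and 335 of 361 reads but a 21-base exon in 0 of 212 and 0 of 376. Tmed2, a cargo receptor of early secretory vesicles, kept its 21-base exon in 602 of 642 reads in replicate 1 (93.8%) and 526 of 560 in replicate 2 (93.9%), so exons at the lower length limit were read in most transcripts of some genes.

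The translation list gave 4 short exons in 3 of 9 genes. In the initiation scaffold Eif4g1, a 21-base exon was kept in 0 of 117 reads in replicate 1 and 0 of 262 in replicate 2, a share of at most 0.792%, and its counterpart in Eif4g3, 76.2% identical, in 0 of 18 and 0 of 18. This Eif4g microexon is known from neurons.

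**Figure D3:**
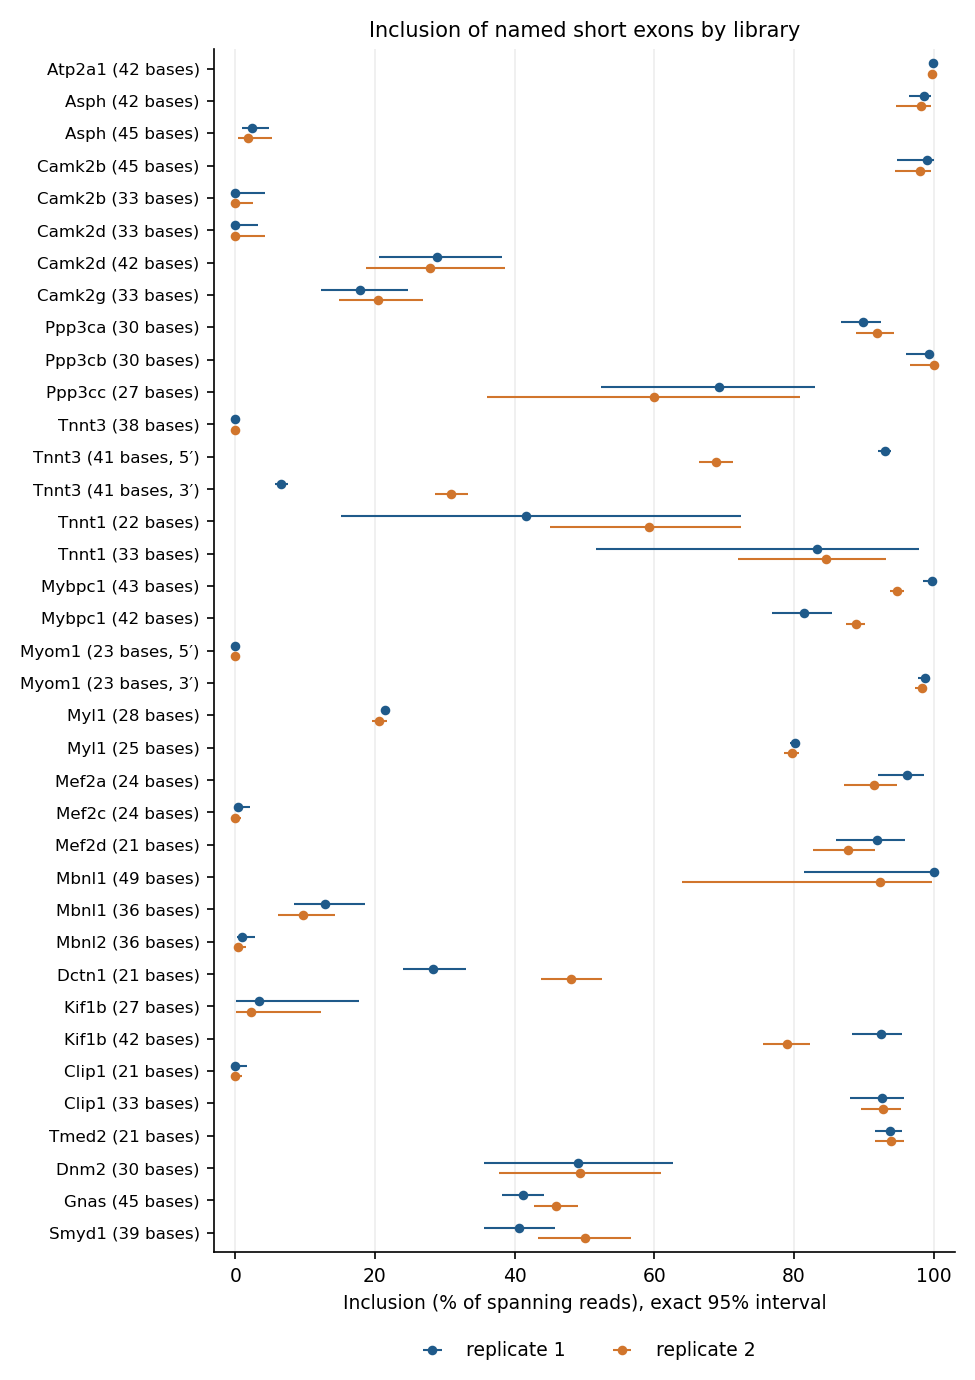
Inclusion (horizontal axis, % of spanning reads) of named short exons in replicate 1 and replicate 2, with exact 95% intervals; the rows are exons with at least 10 reads in each library, grouped by gene, with 5′ and 3′ marking same-length exons of 1 gene. The Tnnt3 pair, Dctn1 and Kif1b are separated by library, and Mef2c lies near 0% while Mef2a and Mef2d were kept in 93.4% and 89.2% of the reads of both libraries together.

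Some well-read exons were kept in an intermediate share of reads. Of the 391 members with at least 100 reads, 45 lay between 20% and 80% with both libraries together. Some of them lay outside that range in a library, such as Mast2 with 86.9% in replicate 1. Gnas, the stimulatory G protein subunit, kept its 45-base exon, which separates the known long and short forms of the protein, in 435 of 1056 reads in replicate 1 (41.2%) and 448 of 976 in replicate 2 (45.9%). Annotated transcripts accounted for nearly all Gnas reads, with Gnas-208 supplying 97.8% of those keeping the exon and Gnas-207 72.8% of those skipping it. Smyd1, a muscle methyltransferase needed for sarcomere assembly, kept a 39-base exon in 152 of 374 reads in replicate 1 and 114 of 228 in replicate 2, and neither this nor the Gnas difference passed the test (Fisher's exact test, adjusted p = 1 for each). Arfgap2 kept 142 of 276 and 147 of 259 reads, and Sirt2, a deacetylase, kept a 47-base exon in 77 of 141 and 54 of 109.

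Some never-kept exons were well covered. At least 100 spanning reads were available for 70 of the 265 never-kept exons, beside 391 of all 1168 short exons, and 32 of those 70 are coding. Beside those named above, Atp1b2, a sodium pump subunit, skipped both a 21-base and a 27-base exon in 617 reads of replicate 1 and 571 of replicate 2, a share of at most 0.253% for each exon. Pdlim5, a Z-disc protein, skipped a 26-base exon in 186 and 218 reads. At the other end, Pde4dip, myomegalin, kept a 47-base exon in 1137 of 1141 and 1782 of 1785 reads, and Hnrnpk, an RNA-binding protein, kept a 44-base exon in 177 of 181 and 208 of 214.

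Same-length exons within a gene could be compared directly by sequence. Exons on chromosome 18 were left out of these comparisons. There were 27 pairs of non-overlapping short exons of equal length in 23 genes, with a median identity of 30.8%, and 3 pairs reached 80%. Phka1, the muscle-type alpha regulatory subunit of phosphorylase kinase, had 39-base exons 116 bases apart and 87.2% identical. The 5′ one was kept in 967 of 980 reads in replicate 1 (98.7%) and 977 of 994 in replicate 2 (98.3%), and the 3′ one in 0 of 981 and 0 of 994, a share of at most 0.152%. With 34 of 39 bases shared, the assignment of reads between these exons rests on the authors' alignment. Both 51-base exons of Drosha, annotated in non-coding transcripts and 98.0% identical, were kept in no read (111 and 114 spanning reads). The Myom1 and Tnnt3 pairs had low identity, 26.1% and 43.9%.

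Between genes, 18 pairs of equal-length short exons were at least 70% identical, again with chromosome 18 left out. Most of them were in related genes, such as the Mef2, Mbnl, Camk2 and Ppp3c pairs. These examples were chosen after their values were seen. Mark2 and Mark3, kinases that set cell polarity, have 27-base exons 77.8% identical; Mark2 kept its own in 39 of 57 reads in replicate 1 and 53 of 74 in replicate 2, and Mark3 in 115 of 116 and 112 of 112. The CPEB translation regulators share a 24-base exon, 87.5% identical between Cpeb2 and Cpeb4, that was kept in 5 of 16 and 10 of 28 reads in Cpeb2 and in 0 of 20 and 0 of 26 in Cpeb4. Unrelated by family, Homer1, Nrf1 and Fam168b hold 36-base coding exons 77.8% to 83.3% identical, as their printed sequences show. Homer1, a synaptic and triad scaffold, kept its exon in 48 of 126 and 39 of 141 reads, Nrf1 in 2 of 18 and 2 of 21, and Fam168b in 18 of 31 and 10 of 38.

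Because each read spans a transcript, the joint state of exon pairs was counted. Of 357 pairs with at least 1 short exon, at least 20 reads over both and at least 5 reads in the rarer state of each exon, 173 pairs in 59 genes were joined unequally by Fisher's exact test (adjusted p below 0.05, same direction in both libraries), a share of 48.5%. The count was 76 without replicate 2 and 93 without replicate 1, 34 with strict skipping introns (those with the donor and acceptor of exon-keeping models), 29 with annotated transcripts alone, 105 without single-read models and 97 without Lrrfip1 and Lrrfip2. Over pairs of any length, 635 of 1270 pairs, 50%, were called, so short exons were close to that background. In 157 pairs the exons were kept or skipped together, and in 16 pairs, from 13 genes, keeping one went with skipping the other. Over pairs of any length the same counts were 569 and 66, so opposed use was not particular to short exons. In 125 of the 157 pairs most double skips were made by 1 long intron over both exons. Lrrfip1, Lrrfip2 and Ttc3 alone gave 42, 34 and 12 pairs, since each gene has a row of neighbouring cassettes.

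Exchange of one exon for the other was nearly complete in Tnnt3 and common in Myl1. In Tnnt3, 2758 reads kept the 5′ exon alone and 200 the 3′ exon alone in replicate 1, with 4 keeping both and 7 neither. In replicate 2 the counts were 1021 and 461, with 3 keeping both and 1 neither. Reads with exactly 1 of the 2 exons made up 99.6% in replicate 1 and 99.7% in replicate 2, while the share with the 3′ exon alone differed between the libraries as given above.

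Myl1 encodes the fast skeletal alkali light chains, made from separate promoters, each with its own short second exon. In 11599 reads of replicate 1 the 25-base exon was kept alone, in 2816 the 28-base exon alone, in 575 both and in 211 neither. Replicate 2 gave 4079, 984, 175 and 100 reads for the same states. The share with exactly 1 exon was 94.8% in each library, and single-exon inclusion differed by under 1 point (21.5% and 20.6% for the 28-base exon, 80.1% and 79.7% for the 25-base exon, in replicate 1 and replicate 2). The transcript Myl1-202 supplied 92.0% of the reads keeping the 25-base exon and Myl1-201 supplied 79.8% of those keeping the 28-base exon.

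Opposed use also linked a short exon to an exon of another length. In Rilpl1, 249 reads of replicate 1 and 224 of replicate 2 kept the 24-base exon without the 88-base exon 260 bases away, and 42 and 37 reads the reverse, against 10 and 19 with both and 8 and 7 with neither (Fisher's exact test, adjusted p = 6.78e-56). In Dlg1, a membrane scaffold, the 34-base exon was kept alone in 20 and 21 reads and an upstream 100-base exon alone in 32 and 52, with both in 3 and 0 and neither in 0 and 0. In Ppfibp1, a liprin, no read in either library kept both its 93-base and 33-base exons, with 34 and 61 reads keeping the 93-base exon alone and 14 and 18 the 33-base exon alone. Dnm2 kept its 30-base exon and a 12-base exon together in 2 and 1 reads, against 26 and 37 with the 30-base exon alone and 10 and 15 with the 12-base exon alone and 19 and 24 with neither. Exactly 1 of the Dnm2 exons was held by 63.2% of reads in replicate 1 and 67.5% in replicate 2.

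In Mef2d, the 21-base exon went with the choice between a pair of upstream exons. Reads with the 135-base exon kept the 21-base exon in 99 cases and skipped it in 2 in replicate 1, and kept it in 176 and skipped it in 9 in replicate 2. Reads without the 135-base exon kept the 21-base exon in 20 cases and skipped it in 3 in replicate 1, and kept it in 24 and skipped it in 8 in replicate 2. For the 138-base exon the direction was opposite, with 19 reads keeping both exons and 2 the 138-base exon alone in replicate 1, and 23 and 8 in replicate 2. Both pairs were called (Fisher's exact test, adjusted p = 0.000346 with the 135-base exon and 0.00120 with the 138-base exon). As the upstream exons are alternatives, these 2 calls rest largely on the same reads and are not separate results.

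Joint keeping had its lowest adjusted p, which also depends on the number of reads, in Mapk12 and Reep1. Mapk12, a stress-activated kinase enriched in muscle, kept its 30-base and 112-base exons together in 201 reads of replicate 1 and 152 of replicate 2 and skipped both in 24 and 19, with 2 and 0 reads split between states (Fisher's exact test, adjusted p = 8.02e-54). All 43 double skips used a single intron. Reep1, an endoplasmic reticulum shaping protein, kept its 36-base exon and a 152-base exon 6141 bases downstream together in 147 and 151 reads and skipped both in 43 and 15. Only 13 and 10 reads kept the 36-base exon without the longer one, and none the reverse (Fisher's exact test, adjusted p = 3.39e-48). Tpd52l2 kept its 27-base and 42-base exons together in 28 and 12 reads, skipped both in 23 and 17, and split them in 1 read of each library.

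**Figure D4:**
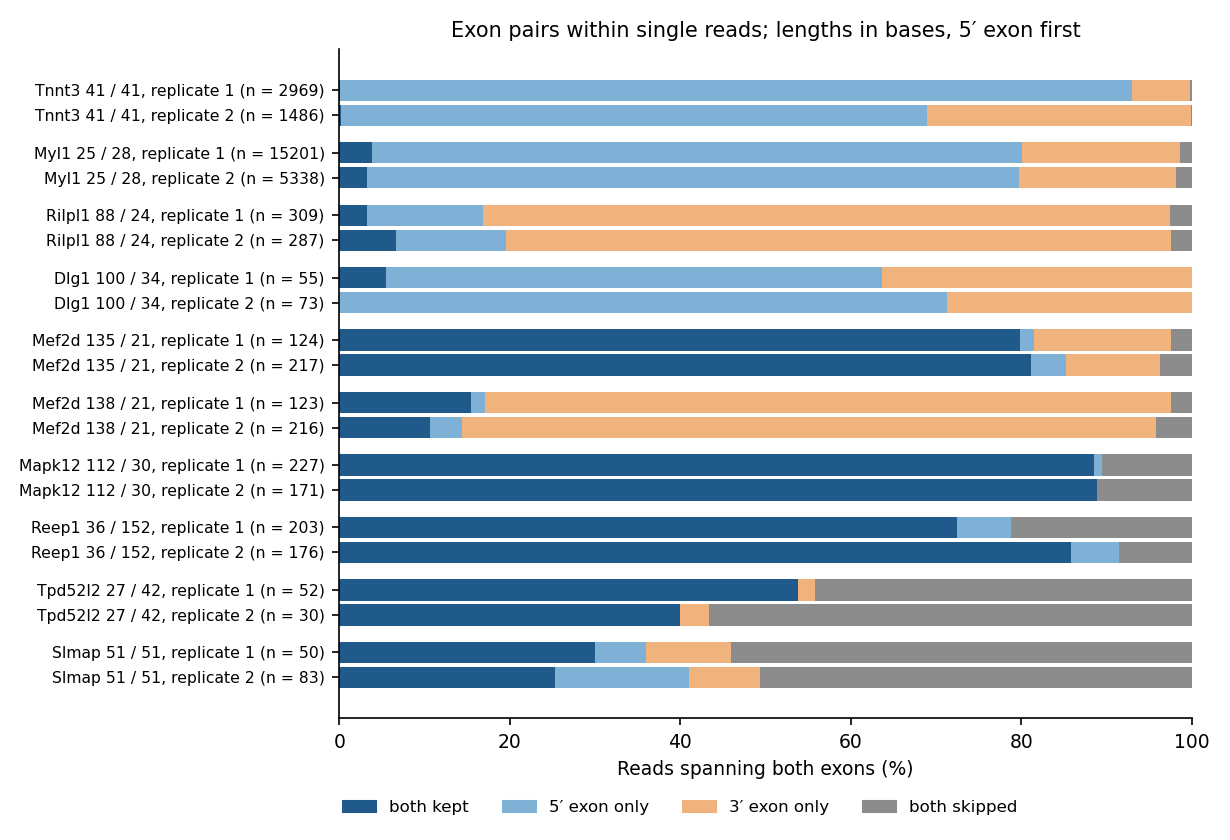
Share of reads spanning both exons (horizontal axis, %) that keep both, 1 or neither exon, for 10 called pairs in each library, with the number of reads in brackets and lengths in bases, 5′ exon first. Tnnt3 and Myl1 reads hold almost always exactly 1 exon of the pair, and Mapk12 and Tpd52l2 reads hold both or neither.

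Few reads were left unassigned at most exons, which does not show that each read was placed in the right state. For 790 of the 1168 exons no read that ran past the exon had an intron chain that fitted neither state, and 19 exons had more such unassigned reads than assigned ones. In all, 24 short exons overlap another short exon, and 2 share their place under 2 gene names. A single exon was read in 1 library and not in the other.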

How the data were processed

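Full-length transcript reads of 2 gastrocnemius libraries had been aligned to mm10 and assigned to transcript models by TALON with the GENCODE M21 annotation, per the file headers and the note deposited with each sample; the aligner is not given in the sources used here, nor are its settings or the filters on models. The deposited values are raw read counts per model, with 1 table per library and models of 0 reads not listed. Reads of a model kept an exon if its exon chain held those exact ends and skipped it if 1 intron covered it; other spanning reads stayed unassigned. Small indels and missed splice sites in long reads can move reads between these states and affect the shortest exons most.

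Members and lists were chosen with earlier results of these data known. Kept and skipped reads were compared between libraries by Fisher's exact test over all alternative exons with Benjamini-Hochberg adjustment (SciPy 1.17.1, pandas 2.3.3, Python 3.11.15), with at least 10 points required. Pairs needed 20 reads, 5 in the rarer state of each exon and the same direction in both libraries. Differences are replicate 1 minus replicate 2. The scripts were tested on simulated data. Named exons were those of 7 gene lists (150 genes), the 12 with most reads, those called, the 8 with at least 100 reads nearest 50%, and the 12 strongest pairs, at most 3 per gene; others were chosen after their values were seen. Alternatives covered annotated transcripts alone, single-read models, strict skipping introns, overlapping exons, read minimums, thinning, size limits and leaving out each library. The exon of 1 listed gene is not reported here.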

Additional observations from a re-analysis of the deposited data

How the results depend on the processing

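No paired analysis was possible because the series has 1 group only. Main values were 4 short exons called different, with the Tnnt3 pair counted as 2, and 173 called pairs. The median inclusion was 68.1%, and 397, 310 and 461 exons lay below 10%, between and above 90%. With annotated transcripts alone, 0 exons and 29 pairs were called and 120 exons lay between 10% and 90%. Without single-read models there were 105 called pairs and a median of 69.1%. Counting only skipping introns with the donor and acceptor of exon-keeping models gave 34 pairs, a median of 95.2% and 114 exons below 10%. By rule, that setting drops every exon kept in no read, so its median and lowest class are partly set in advance. The median was 67.2% without overlapping exons and 70.7% with at least 20 reads. With no minimum difference 7 exons were called, and with at least 20 points 2, which are the Tnnt3 pair. Leaving out 1 library gave 76 to 93 called pairs and medians of 68.9% to 74.1%. Without Lrrfip1 and Lrrfip2, an alternative chosen after seeing the data, 97 pairs were called. Causes were not tested, except that fewer reads or exons enter some of these settings. Over single exons, 44 differences kept direction and side of the threshold, 1 (Dctn1, annotated transcripts alone) did not, and none reversed. Of the inclusion values, 839 were labelled stable and 88 moved. Stable meant within the SD of the 2 libraries around the value of both together. Settings that only remove exons leave that value unchanged by rule. The SD widens where the libraries differ, so leaving out 1 library is a weak check, and 839 does not measure robustness. With 2 libraries, depth limits exons near 10 reads, and a difference between libraries has no replicate check.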
